A study of Mus musculus with 6 samples.

Results

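The genes of the hypoxia-inducible factor (HIF) machinery, 10 in all, were followed in wild-type mouse embryonic fibroblasts immortalised with SV40, a virus whose large T antigen keeps primary cells dividing. They are the alpha subunit genes Hif1a, Epas1 and Hif3a, the beta subunit genes Arnt and Arnt2, the prolyl hydroxylase genes Egln1, Egln2 and Egln3, the asparaginyl hydroxylase gene Hif1an, and Vhl. They were chosen by name, as every row of the deposited gene table whose gene field includes 1 of these symbols, out of 51482 measurements. Each symbol had exactly 1 measurement, 9 of them with a row of their own and 1 (Hif1a) in a row that names other genes as well. The 2 groups, normoxia at 21% oxygen and hypoxia at 0.5% oxygen, had 3 samples each and lasted 16 h, all of the same genotype and cell line, with no further agent named in the labels. The study, which concerns mTORC1, lipid signals and the mitochondrial protease YME1L, used this comparison to profile transcripts under low oxygen.

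HIF is a pair of basic helix-loop-helix PAS proteins. Its alpha subunit is made constantly, and when oxygen is present the EGLN enzymes (also called PHD proteins) hydroxylate prolines in it, which lets the VHL ubiquitin ligase mark it for destruction. FIH, the product of Hif1an, hydroxylates an asparagine and so blocks the binding of coactivators. When oxygen is scarce these enzymes slow, the alpha subunit accumulates, joins ARNT and binds short DNA elements whose core reads ACGTG or GCGTG. Some HIF targets are genes of the pathway itself, so that the transcripts of the sensors can change in hypoxia. Control of the alpha subunits is largely at the protein, which RNA sequencing does not measure.

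The values are in FPKM, fragments scaled to transcript length and library size, and the authors combined the 3 replicates of a group into 1 value. No SD can therefore be given, the spread and overlap of the replicates are not seen, and the depth of the libraries is unknown. The words rose and fell are kept for genes whose q was below 0.05 in the authors' deposited table, which reports their Cuffdiff test. The smallest q in that table, 0.000139, is shared by 5148 of 14575 tested measurements, so it does not rank genes. The labelled cell type was checked against its markers: all 10 fibroblast markers were present in both groups, from 3.11 FPKM (Pdgfra) to 883 FPKM (Vim) in normoxia. Of these 10, 3 were called higher, 5 lower and 2 not at all in the authors' deposited table. Over all tested measurements, 28.9% were called higher and 29.0% lower. Of 6 epithelial markers, 5 were above 1 FPKM in both groups, among them Krt18 at 313 and 443 FPKM and Epcam at 5.97 and 5.22 FPKM, and Krt5 was listed at 0 in normoxia and at 0.00564 FPKM in hypoxia. Of the 5 tested epithelial markers, only Krt18 was called higher, while Krt8 (28.3 to 10.1 FPKM), Krt14 (15.9 to 10.8 FPKM) and Cdh1 (5.93 to 3.76 FPKM) were called lower in the authors' deposited table. The sum over the 6, 369 FPKM in normoxia against 473 in hypoxia, is mostly Krt18, the median log2 fold change of the 5 was -0.52 on the log2(FPKM + 1) scale, and their part in the results below was not tested. The 4 endothelial markers were all under 0.1 FPKM, and of 4 leukocyte markers Adgre1 and Cd3e were listed at 0 in both groups, Ptprc did not exceed 0.00222 FPKM and Cd68 was at 1.32 and 2.27 FPKM. Of 5 muscle or neural markers, 4 had a measurement. Des was at 11.0 FPKM in normoxia and 9.46 in hypoxia and was not called. Actn2 and Myod1 were listed at 0 in both groups, and Sox10 did not exceed 0.00969 FPKM.

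The authors' deposited table tested 9 of the 10 genes and called 6 of them, where it called 57.9% of all tested measurements. Egln1, Vhl, Egln3, Epas1 and Arnt rose and Arnt2 fell, while the shared Hif1a row, Egln2 and Hif1an were not called, and Hif3a was not tested. The share of members called, 66.7%, was near that background. The 5 that rose are 55.6% of the tested members, where 28.9% of all tested measurements were called higher, and 1 fell, where 29.0% were called lower. Of the 5, Egln1, Vhl, Egln3 and Epas1 rose at least 2-fold, a size that 9.03% of all tested measurements reached in that direction; no member fell that far, as 9.87% of all did. Since the genes were taken up with results of these data in view, these counts are a description. The cultures were sequenced in bulk, so that fewer cells expressing a gene and less of its RNA per cell cannot be told apart.

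**Figure D1:**
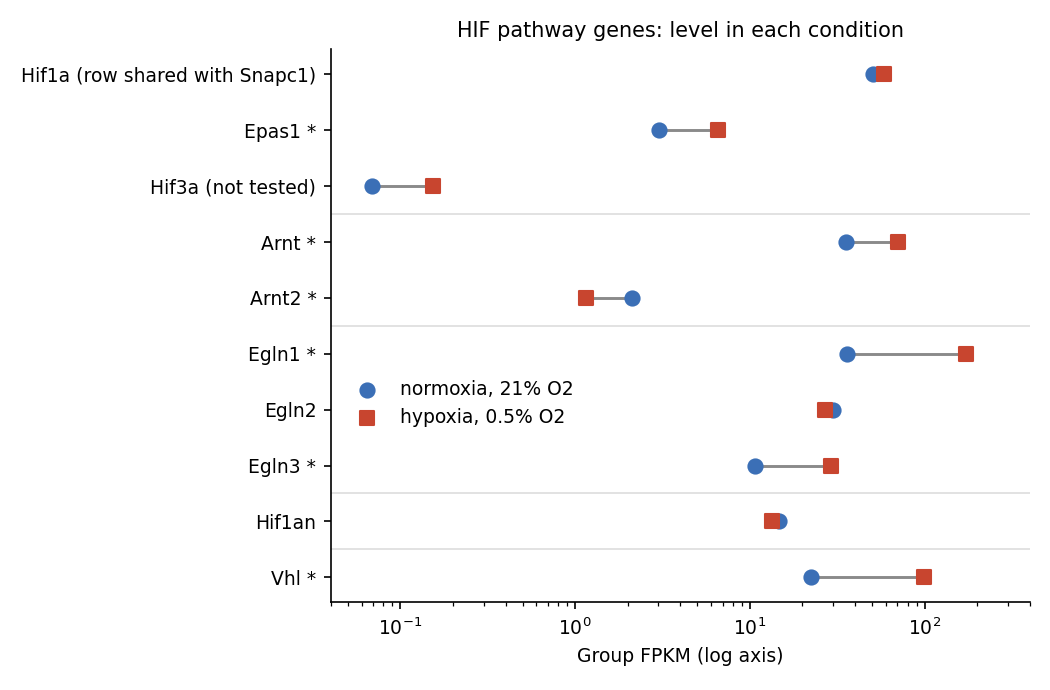
Level of each gene on a log axis of group FPKM, circles for normoxia, squares for hypoxia and a line joining the pair; asterisks mark genes called by the authors. Egln1 moves from 35.9 to 173 FPKM and Vhl from 22.5 to 99.8 FPKM, Arnt2 is the 1 called gene whose square lies left of its circle, and Hif3a stays under 1 FPKM.

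The alpha subunits differed in level and in what the authors' test called. Epas1 (chromosome 17, 86753700 to 86833410, plus strand; GENCODE M21 on GRCm38) encodes HIF-2 alpha, which is best known from endothelial cells and from control of erythropoietin. Its normoxic level of 3.02 FPKM became 6.61 FPKM in hypoxia, a 2.19-fold rise (log2 fold change 1.13, q = 0.000139 in the authors' deposited table). Only 9.36% of tested measurements had a larger log2 fold change. Hif3a (chromosome 7, 17031507 to 17062427, minus strand) encodes HIF-3 alpha, some forms of which restrain the other alpha subunits. Its level was 0.0684 FPKM under normoxia against 0.153 FPKM under hypoxia, and the authors' deposited table did not test it. Epas1 was thus 44.2 times as abundant per length as Hif3a in normoxia and 43.3 times in hypoxia. Both ratios are rough, since they rest on untested Hif3a values far under 1 FPKM.

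The level of Hif1a, the gene of the widely expressed HIF-1 alpha, could not be separated from its neighbours. Hif1a lies on chromosome 12 from 73901375 to 73947530 on the plus strand. Its row also names AC124712.1, whose identifier is Gm49321 in GENCODE M21, a same-strand gene from 73937653 to 73968375 that starts inside Hif1a. The row also names Snapc1 (73964481 to 73988966, plus strand), whose start Gm49321 overlaps and which encodes a subunit of the complex that starts small nuclear RNA transcription. The joint row had 50.6 FPKM under normoxia and 58.7 under hypoxia, a log2 fold change of 0.22 that the authors' deposited table did not call (q = 0.194). That difference has no firm direction, since it is -0.0076 when each group is scaled to its summed FPKM. On the opposite strand, the annotated antisense gene Gm15283 (73843039 to 73949814) spans Hif1a and was at 0.0372 FPKM in normoxia and listed at 0 in hypoxia. Taken at face value, the joint row exceeded Epas1 16.7-fold in normoxia and 8.89-fold in hypoxia, and how much of it is Hif1a cannot be told.

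The beta subunit genes moved apart. Arnt (chromosome 3, 95434388 to 95497240, plus strand) encodes a beta subunit that pairs with HIF alpha subunits and also serves the dioxin receptor AHR. It went from 35.6 FPKM in normoxia to 70.8 FPKM in hypoxia, a 1.99-fold rise (log2 fold change 0.99, q = 0.000139 in the authors' deposited table). Arnt2 (chromosome 7, 84246278 to 84410176, minus strand), a close relative best known from neurons, fell from 2.12 to 1.16 FPKM, to 54.7% of its normoxic value (log2 fold change -0.87, q = 0.000139 in the same table). On the log2(FPKM + 1) scale, the log2 fold change of Arnt2 was smaller, at -0.53. Arnt2 was the minor form in both groups: it made up 5.63% of the summed FPKM of the pair in normoxia and 1.61% in hypoxia. The ratio of Arnt to Arnt2 went from 16.8 to 61.0. The ratio of Arnt to Epas1, by contrast, was 11.8 in normoxia and 10.7 in hypoxia, as both rose by nearly the same factor. An annotated processed pseudogene inside Arnt, Gm42672, was at 0.777 and 1.51 FPKM and was not called (q = 0.715 in the authors' deposited table).

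Among the alpha subunit, beta subunit and prolyl hydroxylase genes, the prolyl hydroxylase genes showed the widest contrast in log2 fold change. Egln1 (chromosome 8, 124908587 to 124949324, minus strand) encodes PHD2, the main oxygen sensor for HIF-1 alpha in most cells. It rose from 35.9 FPKM in normoxia to 173 FPKM in hypoxia, 4.83-fold (log2 fold change 2.27, q = 0.000139 in the authors' deposited table), and 2.68% of tested measurements had a larger log2 fold change. Egln3 (chromosome 12, 54178981 to 54203860, minus strand) encodes PHD3, known as a strongly hypoxia-induced member of the family. It rose from 10.8 to 29.3 FPKM, 2.72-fold (log2 fold change 1.44, q = 0.000139 in the same table). Egln2 (chromosome 7, 27158658 to 27166802, minus strand), the gene of PHD1, had 30.0 FPKM under normoxia and 26.9 under hypoxia, a difference the authors did not call (log2 fold change -0.15, q = 0.179 in the authors' deposited table). Cyp2t4, whose end overlaps that of Egln2 on the opposite strand, was listed at 0 in both groups.

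The make-up of this family changed with its total. Summed over the 3 genes, FPKM went from 76.6 in normoxia to 229 in hypoxia, a ratio of 2.99. In normoxia Egln1 held 46.8% of that sum, Egln2 39.1% and Egln3 14.1%. In hypoxia Egln1 held 75.5%, Egln2 11.7% and Egln3 12.8%. Egln3 therefore rose in level but not in share, and the ratio of Egln1 to Egln2 went from 1.20 to 6.43. Egln2 exceeded Egln3 2.78-fold in normoxia, while their ratio was 0.920 in hypoxia, and whether those nearly equal levels differ cannot be told without the replicates.

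**Figure D2:**
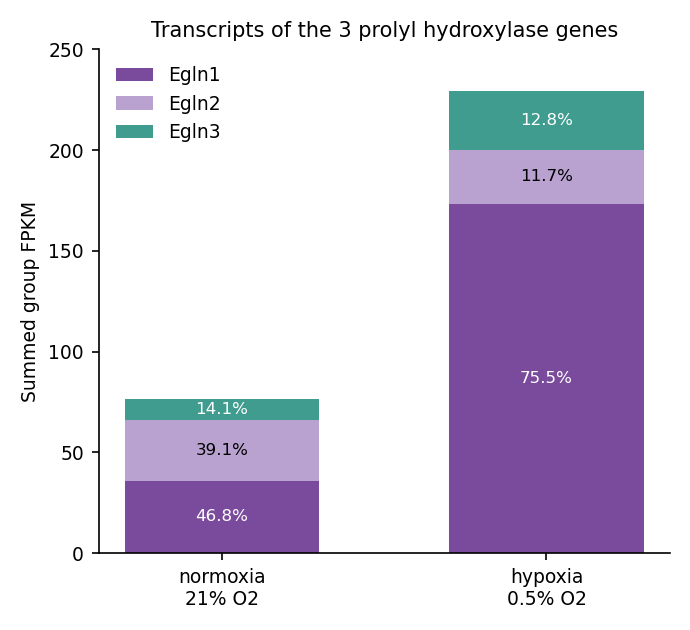
Stacked group FPKM of Egln1, Egln2 and Egln3 in each condition, with the share of each gene in the sum printed in its segment. The sum rises from 76.6 to 229 FPKM, and the Egln1 segment goes from 46.8% to 75.5% of it while the Egln2 segment goes from 39.1% to 11.7%.

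The promoters of the hydroxylase genes are printed because the 3 genes differ in response although each holds core letters of the HIF element. RefSeq sequences (GRCm38.p6) were at hand for 9 of the 10 genes, all but Epas1, in windows of 300 bases that run from 250 before to 50 after a transcript start. The letters ACGTG and GCGTG were searched on both strands, and a match is counted by the distance of its first base from the RefSeq start. Below, the part before the start and before any exon annotated in GENCODE is shown for Egln1 (chr8:124949325-124949504, minus strand), Egln3 (chr12:54203875-54204124, minus strand) and the outer of the 2 windows of Egln2 (chr7:27166803-27167052, minus strand), and Vhl (chr6:113623744-113623958, plus strand) is added as a gene that rose without a match. All read 5′ to 3′ on the strand of the gene, with the core letters in capitals.
Egln1: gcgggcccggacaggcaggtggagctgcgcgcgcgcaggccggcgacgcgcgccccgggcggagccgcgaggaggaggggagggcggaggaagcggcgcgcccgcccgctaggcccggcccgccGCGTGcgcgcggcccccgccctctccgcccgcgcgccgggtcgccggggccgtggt
Egln3: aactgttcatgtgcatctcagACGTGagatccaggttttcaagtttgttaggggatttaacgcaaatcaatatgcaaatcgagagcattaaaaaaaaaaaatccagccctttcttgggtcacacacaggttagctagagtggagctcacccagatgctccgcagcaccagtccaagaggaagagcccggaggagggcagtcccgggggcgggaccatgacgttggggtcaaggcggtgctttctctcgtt
Egln2: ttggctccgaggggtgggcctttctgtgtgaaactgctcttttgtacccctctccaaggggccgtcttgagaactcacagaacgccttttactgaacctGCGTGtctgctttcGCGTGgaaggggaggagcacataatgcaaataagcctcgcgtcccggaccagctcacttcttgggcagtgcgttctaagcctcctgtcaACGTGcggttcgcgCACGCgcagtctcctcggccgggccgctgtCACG
Vhl: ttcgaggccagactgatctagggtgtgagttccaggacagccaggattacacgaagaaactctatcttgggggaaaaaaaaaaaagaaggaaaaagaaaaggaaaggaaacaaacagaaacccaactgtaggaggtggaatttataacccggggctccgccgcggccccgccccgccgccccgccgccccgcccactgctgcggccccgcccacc

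Egln1 had GCGTG 126 bases before its start and ACGTG 68 bases before it. The second match lies outside the stretch above, inside the first exon as GENCODE draws it, since that exon begins farther upstream than the RefSeq start. Egln3 had a single ACGTG, 229 bases before its start. Egln2, which was not called, held the most matches: in the window shown ACGTG occurred 3 times and GCGTG 3 times, and its second window held GCGTG once. One pair of the Egln2 matches is a single palindrome, CACGTG, which holds ACGTG on each strand and is also the E-box bound by other helix-loop-helix proteins such as CLOCK and MYC; it spans the transcript start, so the stretch above ends within it. The window of Hif1a held ACGTG 3 times, again with 1 CACGTG palindrome, and that of Arnt held GCGTG once, 29 bases before the start. Hif3a had GCGTG 230 bases before its start on the opposite strand and 186 bases before it on its own strand. The windows of Vhl, Arnt2 and Hif1an held neither form. The sites of 29 bases around selected cores are given to let their flanks be compared.
Egln1, ACGTG at 68 bases: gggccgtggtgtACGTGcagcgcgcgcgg
Egln3, ACGTG at 229 bases: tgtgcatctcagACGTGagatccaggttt
Egln2, ACGTG at 48 bases: agcctcctgtcaACGTGcggttcgcgcac
Egln2, ACGTG in the palindrome at 3 bases: cgggccgctgtcACGTGcccagcgggcga
Hif1a, ACGTG in the palindrome at 134 bases: acacagacaagcACGTGagcggggcagct
Hif1a, ACGTG at 70 bases: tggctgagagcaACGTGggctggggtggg
Arnt, GCGTG at 29 bases: ccatagtttgggGCGTGtcttctgcccag

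Such letters are common. Of all 32851 RefSeq mouse promoter windows of this length, 19.6% held ACGTG, 32.4% held GCGTG, 43.8% held either and 7.15% held the palindrome CACGTG. Tested measurements with a single gene name that could be matched to a window were also compared. In the authors' deposited table, 36.1% of the 2830 with ACGTG were called higher, against 28.4% of the 6770 without it. Called lower were 28.8% of those with ACGTG and 32.9% of those without it. Among the members, genes that rose were found with ACGTG (Egln1, Egln3), with GCGTG alone (Arnt) and with neither (Vhl), and the gene with most matches, Egln2, was not called. The letters in this window did not sort the members by response, and elements farther away were not searched.

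**Figure D3:**
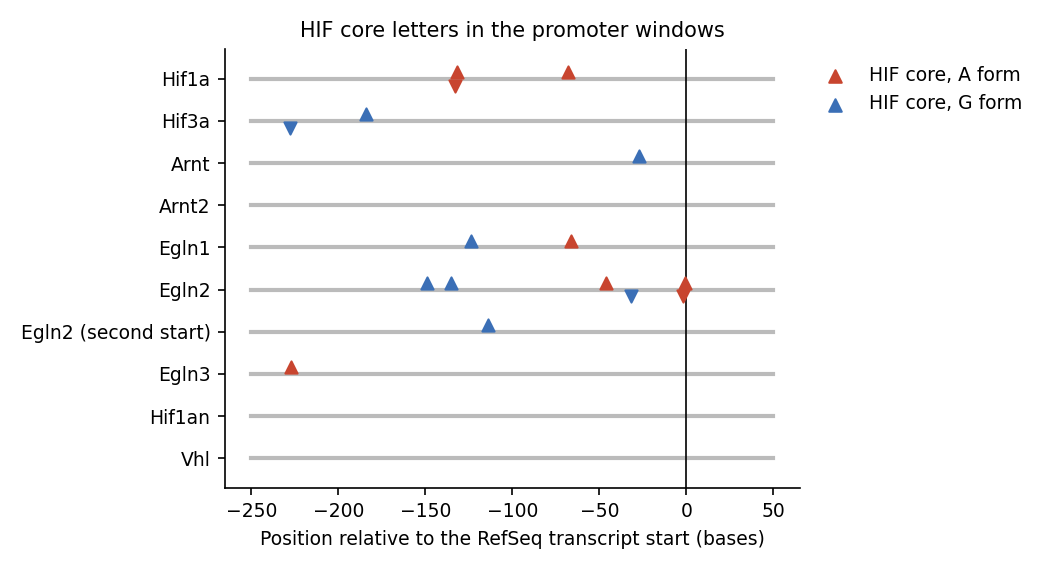
Positions of the HIF core letters in the promoter windows (grey lines, 250 bases before to 50 after the RefSeq start at 0), with the form beginning in A in red and the form beginning in G in blue; upward triangles are on the strand of the gene and downward ones on the opposite strand. Egln2 carries the most matches, and the lines of Vhl, Arnt2 and Hif1an are empty.

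Hif1an (chromosome 19, 44562850 to 44576274, plus strand), the gene of FIH, had 14.7 FPKM under normoxia and 13.5 under hypoxia, again without a call (log2 fold change -0.13, q = 0.236 in the authors' deposited table). With Egln2 it was among the members nearest to no change: its ratio to Egln2 hardly differed between groups, as Egln2 was 2.04 times as abundant in normoxia and 2.00 times in hypoxia. The ratio of Egln1 to Hif1an, in contrast, went from 2.44 to 12.9. On the side of the hydroxylases, the transcripts that rose were thus those of 2 of the 3 prolyl hydroxylases and not, by the authors' test, that of the asparaginyl hydroxylase.

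Vhl (chromosome 6, 113623959 to 113631633, plus strand) encodes the substrate receptor of the ligase that removes hydroxylated alpha subunits and is a tumour suppressor of the kidney. It rose from 22.5 FPKM in normoxia to 99.8 FPKM in hypoxia, 4.44-fold (log2 fold change 2.15, q = 0.000139 in the authors' deposited table), and 3.06% of tested measurements had a larger log2 fold change. Its ratio to Egln1 moved little, with Egln1 at 1.60 times the FPKM of Vhl in normoxia and 1.74 times in hypoxia. The neighbouring genes on the same strand moved less: Brk1, which ends 7008 bases before Vhl, rose 1.33-fold from 149 to 198 FPKM. Irak2, which begins 6834 bases after Vhl, was at 14.9 and 18.4 FPKM and was not called (q = 0.121 in the authors' deposited table). The annotated gene 1700015O11Rik, which lies on the opposite strand and whose end is 16 bases beyond that of Vhl, was listed at 0 in both groups.

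None of the 8 tested genes listed for the VHL ligase, its cullin and the NEDD8 step was called higher beside Vhl, where 28.9% of all tested measurements were. Lrr1, at 8.26 and 9.17 FPKM and not called, is on that list, though its work with VHL was not examined. VHL acts with elongins B and C, the scaffold cullin 2 and the RING protein RBX1, and the ligase is switched on by attachment of NEDD8. At q below 0.05 in the authors' deposited table, 1 of the 8 was called lower, where 29.0% of all were, and 7 were not called. At an unadjusted p below 0.05 in that table, 1 would count as higher and 2 as lower. The gene that fell was Uba3, a subunit of the enzyme that activates NEDD8, from 89.6 to 74.9 FPKM (q = 0.0123 in that table). Elob was at 626 and 525 FPKM (q = 0.328), Eloc at 166 and 191 FPKM (q = 0.167) and Cul2 at 21.1 and 24.4 FPKM (q = 0.0747), all from the authors' deposited table. Cul2, the least abundant of these core subunits, was below Vhl 1.07-fold in normoxia and 4.09-fold in hypoxia on the FPKM scale. Median log2 fold change on the scale of log2(FPKM + 1) was -0.0058 for the 8 genes, beside 0.0027 for the 12127 tested measurements whose mean reached 1 FPKM.

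By level, the order of the members changed between the groups. In normoxia the joint Hif1a row came first at 50.6 FPKM, followed by Egln1 and Arnt, whose 35.9 and 35.6 FPKM lie too close to be ordered without replicates. Egln2, Vhl, Hif1an and Egln3 followed, and Epas1, Arnt2 and Hif3a were lowest. In hypoxia Egln1 came first and Vhl second, ahead of Arnt at 70.8 FPKM and the joint Hif1a row at 58.7 FPKM. Egln3 and Egln2 came next at 29.3 and 26.9 FPKM, close to each other and well below these. Hif1an followed at 13.5 FPKM, and the lowest places stayed with Epas1, Arnt2 and Hif3a. Among tested measurements, 79.3% had a lower normoxic level than Egln1 and 96.3% a lower hypoxic level, and for Vhl these shares were 69.0% and 92.6%. Over the 9 members with a mean of at least 1 FPKM, the median log2 fold change was 0.92 on the log2(FPKM + 1) scale, beside 0.0027 for all tested measurements at that level. Hif3a, the member under that level, is not in this median.

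**Figure D4:**
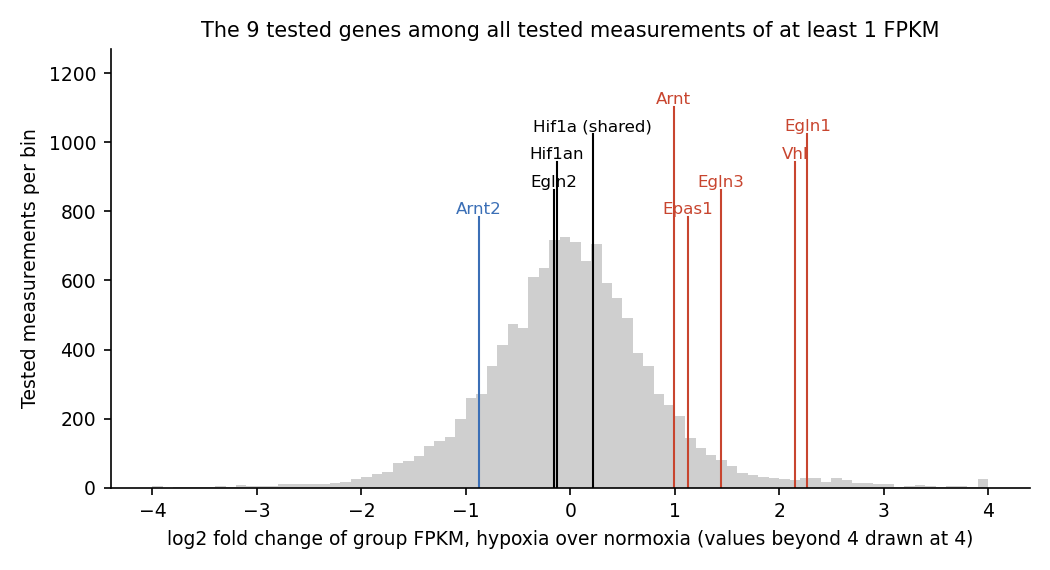
Histogram of the log2 fold change (hypoxia over normoxia) of all tested measurements whose mean reached 1 FPKM, with lines at the 9 tested members; red marks called higher, blue called lower and black not called. Egln1 and Vhl lie in the right tail at 2.27 and 2.15, Egln2 and Hif1an lie near 0 at -0.15 and -0.13, and Arnt2 is at -0.87.

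Genes that act on HIF transcription were called in both directions, mostly with small changes. Of 10 tested genes of coactivators and regulators, 4 rose and 1 fell in the authors' deposited table, and 5 were not called (50% called). Over all tested measurements, 57.9% were called, 28.9% higher and 29.0% lower. The median log2 fold change was 0.26 for the 9 listed genes at a mean of at least 1 FPKM. The largest rise was that of Pkm, from 860 to 3138 FPKM. Pkm encodes pyruvate kinase, a glycolytic enzyme whose M2 form has also been described as a HIF-1 coactivator. Ncoa1, a coactivator of nuclear receptors, rose from 2.36 to 6.14 FPKM (2.60-fold), and Crebbp and Zmiz1 rose 1.23-fold and 1.22-fold. Cited2, which competes with HIF alpha subunits for the coactivators CBP and p300, fell from 26.9 to 21.1 FPKM. Ep300, the gene of p300, was at 24.8 and 28.0 FPKM and was not called (q = 0.496 in the authors' deposited table).

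Among 19 tested genes listed for the stability of alpha subunits or of the hydroxylases, 5 rose, 3 fell and 11 were not called in the authors' deposited table (42.1% called). Over all tested measurements, 57.9% were called, 28.9% higher and 29.0% lower. The median log2 fold change of the 19 was 0.017. Ankrd37, counted in this list though known here only as a target of HIF, rose from 12.7 to 159 FPKM (12.5-fold). Siah2, a ubiquitin ligase that marks PHD1 and PHD3 for destruction, rose from 9.95 to 33.8 FPKM (3.40-fold). Its relative Siah1b rose 1.48-fold from 6.95 to 10.3 FPKM, while Siah1a was at 14.7 and 16.7 FPKM (q = 0.104 in the authors' deposited table). Rack1, a ribosomal scaffold that can direct HIF-1 alpha to an oxygen-independent ligase, rose 1.41-fold. On the other side Wdr83, also called MORG1 and described as a scaffold for PHD3, fell from 22.6 to 12.3 FPKM. Fbxw7, a ligase subunit that targets many transcription factors, went from 5.38 to 3.28 FPKM (q = 0.0406 in the authors' deposited table).

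Other members of the bHLH-PAS family were mostly low. The authors' deposited table called 5 of 8 tested genes higher and none lower at q below 0.05. Over all tested measurements, 28.9% were called higher and 29.0% lower. The share of the 8 called, 62.5%, was near the 57.9% of all tested measurements, and the counts were the same at an unadjusted p below 0.05. Of the 8, 4 had a mean of at least 1 FPKM. Clock and Arntl, the pair that drives the circadian clock, rose 1.50-fold and 1.38-fold to 10.2 and 8.15 FPKM. Npas1 rose from 0.0208 to 1.38 FPKM (q = 0.000518 in the authors' deposited table), and Sim2 rose 1.98-fold to 0.543 FPKM. The dioxin receptor gene Ahr, which shares Arnt as partner, was at 9.44 and 8.16 FPKM and was not called (q = 0.0930 in that table). Its repressor Ahrr rose from 0.561 to 0.978 FPKM (q = 0.0390 in the same table).

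For scale, 12 canonical HIF target genes are given, a list that earlier results of these data already showed to rise. Their counts are therefore a description, and whether HIF drove them was not tested. All 12 had a measurement called higher in the authors' deposited table, where 28.9% of all tested measurements were. A second measurement under the name Aldoa, at 2.33 and 5.29 FPKM, was not called (q = 0.472 in that table). Their median log2 fold change was 2.70 over 13 measurements on the log2(FPKM + 1) scale. Without a pseudocount, the largest log2 fold changes were those of Adm (5.77), Ndrg1 (3.68), Car9 (3.07) and Kdm3a (3.04). Also without a pseudocount, the rises of Egln1 (2.27) and Vhl (2.15) lie near the lower end of the range of the called targets. That range runs from 2.05 for P4ha1 to 5.77 for Adm. Of the called targets only P4ha1 lay below Vhl, and only P4ha1 and Aldoa (2.24) below Egln1. The rises of Egln3, Epas1 and Arnt lie below the whole range.

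**Figure D5:**
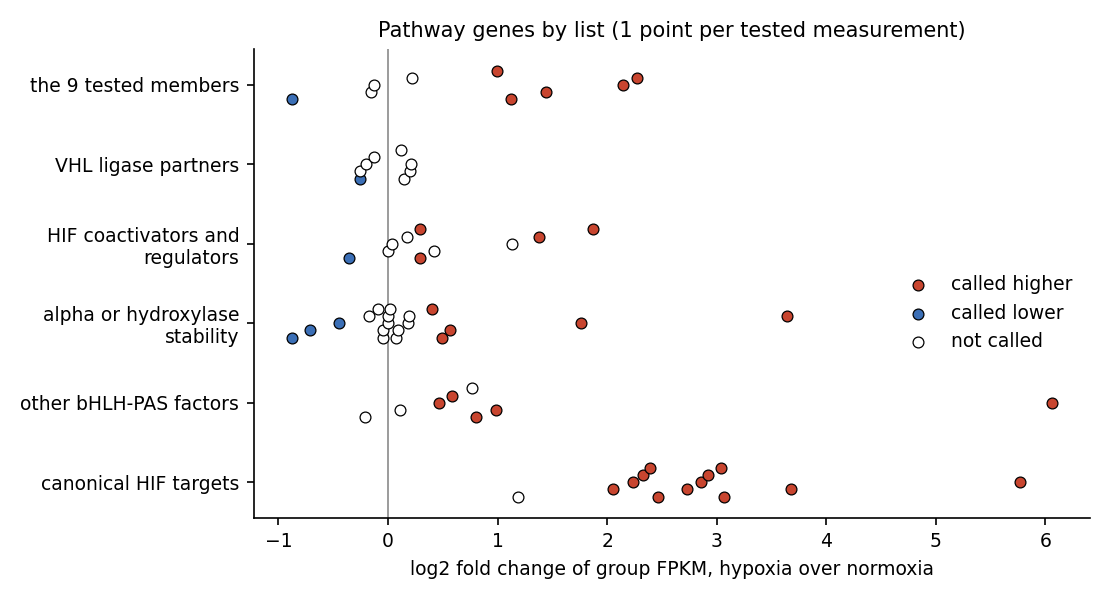
Log2 fold change of group FPKM (hypoxia over normoxia) for the 9 tested members and for each tested measurement of 5 pathway lists, 1 point each; red marks called higher, blue called lower and white not called. The VHL ligase partners cluster around 0 while the canonical targets lie to the right, and the members spread from -0.87 to 2.27.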

How the data were processed

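RNA was sequenced from 3 normoxic and 3 hypoxic samples, which the series design calls biological replicates. Libraries were stranded and poly-A selected, per the labels' protocols. The submitters' processing notes name Cuffdiff 2.2.1, Cufflinks, StringTie 1.3.4d and HISAT2 2.1.0 with the build GRCm38. For the use of strand in counting and the scaling of libraries, the setting was not given in the sources used. The authors deposited 1 table with an FPKM per gene and group, a log2 fold change, a test statistic (a score, not used), and p-values and q-values, per the file headers. Sequencing depth is unknown, so no interval is given. Rows repeating 1 measurement under several identifiers were counted once (53207 rows, 51482 measurements).

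The deposited log2 values matched the ratio of the FPKM columns to within 1.4e-05. No test over samples was run, since the table holds group values; calls are the authors' q below 0.05, adjusted over 14575 tested measurements. Folds are ratios of FPKM. Medians use a pseudocount of 1 and a mean of at least 1 FPKM. Alternatives were a q of 0.01, a 2-fold threshold, single-gene rows, pseudocounts, filters and rescaling. The members, the 5 pathway lists (66 symbols, 61 with a row under that symbol) and the tests were chosen with earlier results of these data known. All members are named, with up to 4 called genes of largest change and up to 2 against the majority per list; other list genes were named after their values were seen. Gene positions come from GENCODE M21 and are 1-based. Scripts were tested on simulated data (Python 3.11.15, pandas 2.3.3).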

Additional observations from a re-analysis of the deposited data

How the results depend on the processing

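The calls are the authors' and were not retested, so rescaling could not change them, and the 6 called members have rows of their own; all 6 have q below 0.01. With a 2-fold threshold on the deposited values, 4 of the 5 that rose remained, all but Arnt, and 0 that fell. That threshold depends on scaling: with the median of ratios Arnt (log2 1.00) just passes it, and with the summed FPKM Epas1 (0.90) does not and Arnt2 (-1.10) does. Of 40 fold changes of members under alternatives, 39 kept their direction; the joint Hif1a row went from 0.22 to -0.0076 (log2) when each group was scaled to its summed FPKM, a choice made after seeing the data that shifts every log2 fold change by -0.22. The median over members (0.92) was 0.57 without a filter, where Hif3a enters, 0.97 with a mean of at least 5 FPKM, 0.99 with a pseudocount of 0.1, 0.93 with the median of ratios, 0.73 with the summed FPKM and 0.95 with single-gene rows. The summed hydroxylase ratio of 2.99 was 3.02 and 2.56 under these scalings. At q below 0.01 the VHL partners had 0 lower in place of 1, and coactivators 2 higher in place of 4. The 31 called list measurements kept their direction under both scalings. No paired analysis was possible because the table holds 1 value per group, and leaving out replicates was not run for the same reason.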
